A study of Mus musculus with 12 samples.

Results

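Plasminogen activators, the urokinase receptor and serpin inhibitors were examined in murine hip cartilage as 6 genes, namely Plau, Plat, Plaur, Serpinb2, Serpine2 and Serpina3n. Every probe of the normalized array table that carried one of these symbols was taken, which gave 7 of 21004 probes and 6 of 15434 gene symbols. Plau, Plat, Plaur, Serpinb2 and Serpina3n each had 1 probe in that table and Serpine2 had 2. The array carries 2 further Plat probes outside the normalized table, and neither was detected on any of the 12 arrays.

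RNA was measured on Illumina mouse BeadChips, single-colour arrays of bead-bound probes, with 3 arrays in each of 4 groups. All mice were of the C57BL6 strain and 4 to 6 weeks old by the labels, and were either WT or MAPK9 KO, a knockout of the kinase JNK2. Only the genotype name is given for the knockout, without the allele. Injury was the avulsion of the femoral head epiphysis of freshly culled mice, and each replicate combined the hips of several mice. WT control and Mapk9 KO control hips were snap-frozen, whereas WT injured and Mapk9 KO injured hips were kept in serum-free medium for 4 h post injury. The methods describe the freezing and the culture without naming the genotype. The effect of injury and the effect of culture therefore cannot be told apart, and "injury" below stands for both.

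Plasminogen is the circulating precursor of plasmin, a serine protease that dissolves fibrin, cleaves matrix proteins and can activate matrix metalloproteinases. It is converted by urokinase (encoded by Plau), which acts mainly at cell surfaces where its receptor (encoded by Plaur) holds it, and by tissue plasminogen activator (encoded by Plat), which acts best when bound to fibrin. Serpins are inhibitors that trap the protease in a covalent complex. Serpinb2 encodes plasminogen activator inhibitor 2, Serpine2 encodes protease nexin 1, which inhibits urokinase, tissue plasminogen activator and thrombin, and Serpina3n encodes a secreted inhibitor related to human antichymotrypsin.

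Each value below rests on a probe of 50 bases, and the first 30 bases of each are shown 5′ to 3′ because they define which transcript was read. The 2 Serpine2 probes are shown with their identifiers since each is reported separately.
Plau: ctccagactgtgatgcggggccatttggtc
Plat: gaggtagaccaaagtctgccctcctggtcc
Plaur: aaccagaagagaattggaacaagggctgcg
Serpinb2: ttctttctgaggtgttccatcaagccagcg
Serpina3n: cccctggcactcctacttagaacaaagtag
Serpine2 ILMN_1246808: gtggaatgctggatgcctgggatgctgtag
Serpine2 ILMN_2883164: gctgtcaagccgcgtacctgtcactactgg

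Between 16930 and 18969 probes were detected per array, and array medians after normalization lay between 7.55 and 7.70 on the log2 scale. Of the 14 chondrocyte markers, 11 were measured, among them Col2a1 with a mean log2 signal of 13.83 and Acan with 11.16 in WT control hips. The Mapk9 probe ILMN_2591066 read between 10.05 and 10.90 on the WT arrays and between 8.69 and 9.28 on the Mapk9 KO arrays, lower by 1.57 log2 units in control hips (limma adjusted p = 0.0151) and by 1.57 in injured hips (limma adjusted p = 0.00485). The other Mapk9 probe was detected on 3 of 3 WT control, 1 of 3 WT injured and 0 of 6 Mapk9 KO arrays. Where an array number is given, it is the replicate number in the labels. The array signal is that of a bulk tissue, so more cells of a type and more RNA per cell cannot be told apart.

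Injury of WT hips was associated with higher Plaur, Serpinb2 and Serpina3n signals. A gene was called upregulated or downregulated where a probe differed more than 2-fold and its limma p, adjusted by Benjamini-Hochberg across the whole table, lay under 0.05. In WT hips 3 of the 6 genes were upregulated and 0 downregulated, while 14.7% of all probes were called, 7.55% upregulated and 7.14% downregulated. In Mapk9 KO hips the same 3 genes were upregulated and 0 downregulated, against 18.7% of all probes called, 9.59% upregulated and 9.14% downregulated. The median log2 difference over the 7 probes was 0.66 in WT and 0.68 in Mapk9 KO hips, and over all probes it was -0.024 and -0.017. The members were chosen with earlier results of these data known, and the counts set genes against single probes. Comparisons of the members with all probes are therefore a description only. By the adjusted p alone, 3 of the 6 genes passed in WT hips against 25.3% of all probes, and 4 in Mapk9 KO hips against 38.3%. These counts moved when the replicate number was added as a block. Then 4 genes passed in WT hips, where Serpine2 joined through probe ILMN_2883164 with a lower signal (limma adjusted p = 0.0298), against 29.6% of all probes. In Mapk9 KO hips 5 passed, where Plau joined with a higher signal (limma adjusted p = 0.0263), against 44.8%.

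**Figure D1:**
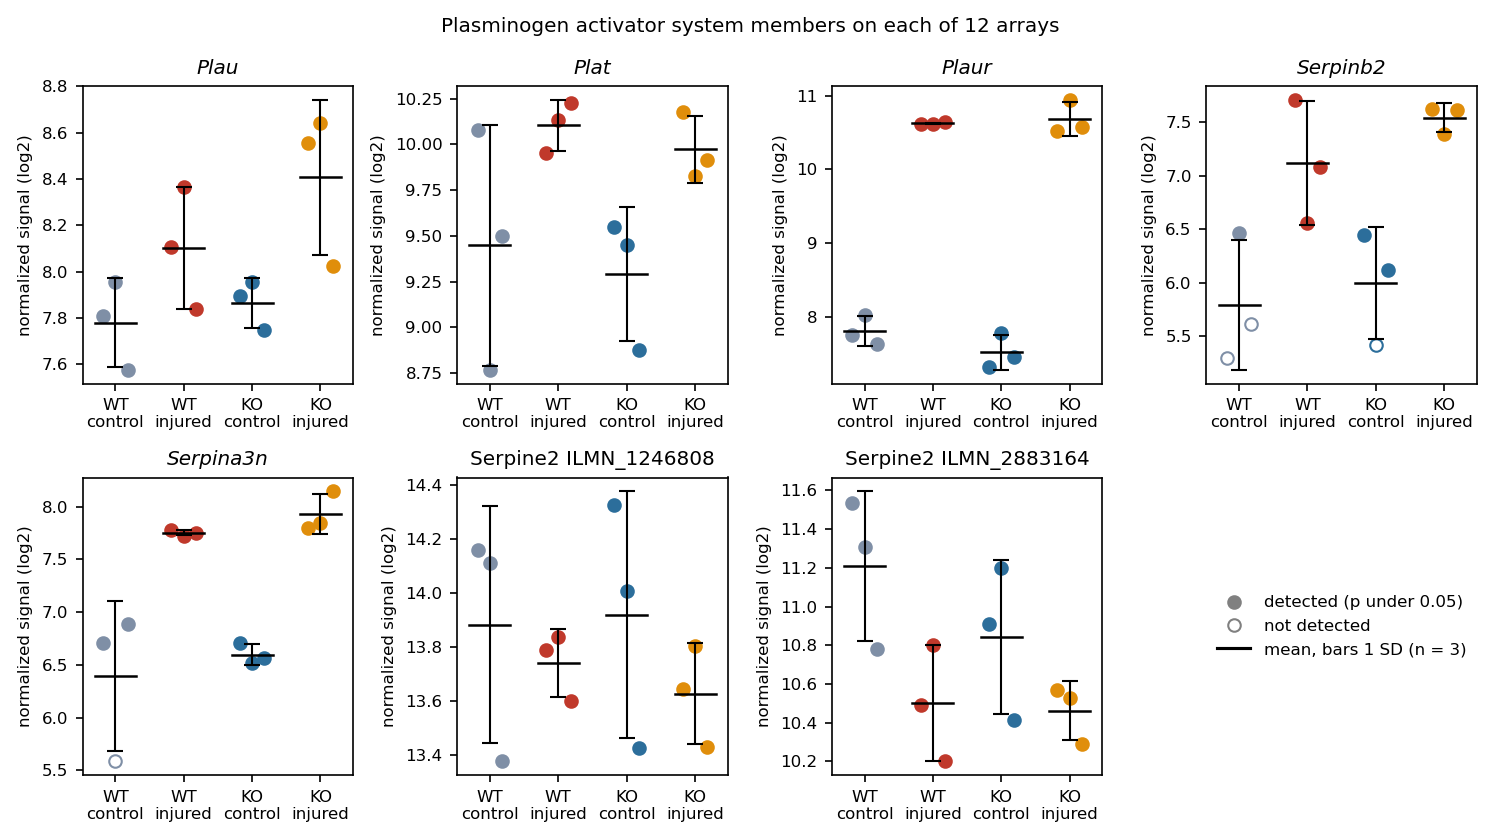
Log2 normalized signal (vertical axis, a separate scale per panel) of the 7 probes on each of the 12 arrays, grouped on the horizontal axis. Filled points were detected and open points were not, and the lines are group means with bars of 1 SD (n = 3). Plaur is the probe with the widest gap, with all control arrays at or below 8.03 and all injured arrays at or above 10.52.

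Plau, the gene of urokinase, was detected on all 12 arrays at moderate log2 signals. WT control arrays 1, 2 and 3 read 7.81, 7.96 and 7.57, and WT injured arrays 1, 2 and 3 read 8.11, 8.36 and 7.84. Mapk9 KO control arrays read 7.89, 7.96 and 7.75, and Mapk9 KO injured arrays read 8.56, 8.64 and 8.02. The WT groups overlapped, because injured array 3 lay below control array 2, whereas the Mapk9 KO groups did not. The WT difference was 0.32 on the log2 scale (SE 0.22, limma adjusted p = 0.312), with a 95% confidence interval from -0.16 to 0.80. In Mapk9 KO hips it was 0.54 (SE 0.20, limma adjusted p = 0.0557) with an interval from 0.096 to 0.99, so a 2-fold increase lay outside both intervals. Array 3 gave the lowest Plau value in all 4 groups. Without WT injured array 2 the WT difference was 0.19, and without Mapk9 KO injured array 3 the Mapk9 KO difference was 0.73 (limma adjusted p = 0.0179). Within each replicate number the injured array was higher than the control array in 6 of 6 pairs, by 0.26 to 0.69.

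Plat, the gene of tissue plasminogen activator, varied more among control hips than any injured group did. WT control arrays 1, 2 and 3 read 10.08, 8.77 and 9.50 on the log2 scale, a spread wider than the difference between the group means. WT injured arrays read 9.95, 10.13 and 10.23, Mapk9 KO control arrays 9.55, 9.45 and 8.88, and Mapk9 KO injured arrays 10.18, 9.83 and 9.91. WT control array 1 lay above WT injured array 1, so the WT groups overlapped, whereas all Mapk9 KO injured arrays lay above all Mapk9 KO control arrays. The log2 difference was 0.66 in WT hips (SE 0.30, limma adjusted p = 0.143, interval -0.015 to 1.33). In Mapk9 KO hips it was 0.68 (SE 0.21, limma adjusted p = 0.0283, interval 0.21 to 1.16), a fold change of 1.60 that passed the adjusted p but not the fold limit. The WT difference was 0.32 without WT control array 2 and 0.97 without WT control array 1, where it passed the adjusted p (limma adjusted p = 0.0394). The limma adjusted p of the Mapk9 KO difference became 0.0824 without Mapk9 KO control array 3, 0.100 without Mapk9 KO injured array 1 and 0.0588 without Mapk9 KO injured array 3.

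Plaur, the gene of the urokinase receptor, was the member with the largest difference post injury. WT control arrays 1, 2 and 3 read 7.76, 8.03 and 7.64, and WT injured arrays read 10.62, 10.62 and 10.64. Mapk9 KO control arrays read 7.31, 7.78 and 7.46, and Mapk9 KO injured arrays read 10.52, 10.95 and 10.58. No injured array came within 2 log2 units of any control array, and the WT injured arrays differed from each other by less than the control arrays did. Plaur rose 7.04-fold in WT hips (log2 difference 2.82, SE 0.20, limma adjusted p = 1.25e-05). It rose 8.94-fold in Mapk9 KO hips (log2 difference 3.16, SE 0.20, limma adjusted p = 9.88e-07). Both calls held with each array left out in turn, with log2 differences from 2.73 to 2.93 in WT and from 3.03 to 3.29 in Mapk9 KO hips.

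The bases upstream of Plaur are shown because it was the member with the largest difference. The RefSeq promoter table (GRCm38.p6) held 4 of the 6 genes, Plaur, Serpinb2, Serpina3n and Serpine2, and was searched on both strands for TGACTCA, the sequence bound by AP-1, a factor acting downstream of JNK kinases, and for TATAAA, the letters of the box that some promoters hold near their start. The 120 bases before each start are printed 5′ to 3′ on the strand of the gene with matches in capitals, for Plaur from chr7:24462363-24462482 (plus strand), for the first of 2 listed Serpinb2 starts from chr1:107511303-107511422 (plus strand) and for Serpina3n from chr12:104406588-104406707 (plus strand).
Plaur: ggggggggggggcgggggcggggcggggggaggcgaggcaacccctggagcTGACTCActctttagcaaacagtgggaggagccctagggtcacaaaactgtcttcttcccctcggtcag
Serpinb2: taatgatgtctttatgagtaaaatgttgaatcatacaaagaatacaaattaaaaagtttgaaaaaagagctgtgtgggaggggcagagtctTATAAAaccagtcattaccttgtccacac
Serpina3n: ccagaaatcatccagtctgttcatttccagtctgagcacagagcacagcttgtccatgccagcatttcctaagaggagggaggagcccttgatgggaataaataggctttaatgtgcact
TGACTCA lay 69 bases before the Plaur start, and 4.46% of all 32851 windows of 250 bases in the table held it. TATAAA lay 29 bases before the Serpinb2 start, and 12.4% of the windows held it. Neither sequence was found in the 250 bases before Serpina3n or Serpine2, and a match is a description of the letters only. The Serpine2 window was 78.8% G and C, against 32.4% for Serpinb2, 59.6% for Plaur, 46.4% for Serpina3n and a median of 52.4% over the table.

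Serpinb2, the gene of plasminogen activator inhibitor 2, was near the limit of detection in uninjured hips. It was detected on 1 of 3 WT control arrays, 2 of 3 Mapk9 KO control arrays and all 6 injured arrays. WT control arrays 1, 2 and 3 read 5.29, 6.46 and 5.61 on the log2 scale, and WT injured arrays read 7.71, 6.55 and 7.08. Mapk9 KO control arrays read 6.45, 5.42 and 6.12, and Mapk9 KO injured arrays read 7.62, 7.38 and 7.61. The groups did not overlap in either genotype, although WT control array 2 and WT injured array 2 were separated by only 0.09. Serpinb2 rose 2.50-fold in WT hips (log2 difference 1.32, SE 0.35, limma adjusted p = 0.0205) and 2.91-fold in Mapk9 KO hips (log2 difference 1.54, SE 0.25, limma adjusted p = 0.000676).

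The WT call of Serpinb2 depended on single arrays. The limma adjusted p became 0.0846 without WT control array 1, 0.0557 without WT control array 3, 0.0765 without WT injured array 1 and 0.0512 without WT injured array 3, with log2 differences between 1.02 and 1.34. The Mapk9 KO call held with each array left out, with log2 differences from 1.25 to 1.77. Control values on arrays without detection lie within the background, and the fold changes of this gene are limited by it.

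Serpina3n rose in both genotypes and was nearly equal among the injured WT arrays. WT control arrays 1, 2 and 3 read 6.71, 5.58 and 6.89 on the log2 scale, with array 2 not detected, and WT injured arrays read 7.77, 7.73 and 7.75. Mapk9 KO control arrays read 6.71, 6.52 and 6.56, and Mapk9 KO injured arrays read 7.80, 7.85 and 8.15. All injured arrays lay above all control arrays. The increase was 2.56-fold in WT hips (log2 difference 1.36, SE 0.31, limma adjusted p = 0.0107) and 2.52-fold in Mapk9 KO hips (log2 difference 1.34, SE 0.18, limma adjusted p = 0.00017). Without WT control array 2 the WT difference was 0.95 (limma adjusted p = 0.00726), which is under the fold limit. Serpina3n belongs to a cluster of closely related mouse genes, and signal from its relatives in this probe was not tested.

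The size of the Serpinb2 and Serpina3n differences also depended on the background correction. With quantile normalization and no background correction, the WT log2 difference was 0.62 for Serpinb2 (limma adjusted p = 0.0318) and 0.75 for Serpina3n (limma adjusted p = 0.00447). In Mapk9 KO hips these were 0.76 (limma adjusted p = 0.000236) and 0.79 (limma adjusted p = 8.03e-05). All 4 passed the adjusted p and stayed under the 2-fold limit, leaving Plaur as the only member called in either genotype under that setting. With the methods' t-test, run on the deposited log2 values, and Benjamini-Hochberg adjustment, Plaur was likewise the only member called in WT hips, while all 3 were called in Mapk9 KO hips.

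Serpine2, the gene of protease nexin 1, was detected on all 12 arrays by both of its probes. The estimates of the probes were not tested against each other. Probe ILMN_1246808 read 14.16, 14.11 and 13.38 on WT control arrays 1, 2 and 3, and 13.79, 13.84 and 13.60 on WT injured arrays. The Mapk9 KO control arrays read 14.33, 14.01 and 13.43, and the Mapk9 KO injured arrays 13.65, 13.81 and 13.43. The groups overlapped in both genotypes, and the log2 difference was -0.14 in WT hips (SE 0.25, limma adjusted p = 0.724) and -0.29 in Mapk9 KO hips (SE 0.24, limma adjusted p = 0.367). These sizes rested on single arrays. The WT difference was -0.00069 without WT control array 1 and -0.39 without WT control array 3, and the Mapk9 KO difference was -0.090 without Mapk9 KO control array 1 and -0.54 without Mapk9 KO control array 3. With quantile normalization and no background correction the WT difference was -0.47 (limma adjusted p = 0.00711).

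Probe ILMN_2883164 of Serpine2 read 11.54, 11.31 and 10.78 on WT control arrays 1, 2 and 3, and 10.49, 10.80 and 10.20 on WT injured arrays. The Mapk9 KO control arrays read 10.91, 11.20 and 10.42, and the Mapk9 KO injured arrays 10.57, 10.53 and 10.29. These groups overlapped too, and array 3 was the lowest of its group for both probes in all 4 groups. The log2 difference was -0.71 in WT hips (SE 0.25, limma adjusted p = 0.0665, interval -1.27 to -0.14) and -0.38 in Mapk9 KO hips (SE 0.22, limma adjusted p = 0.201, interval -0.87 to 0.10). Without WT control array 3 the WT difference was -0.92 (limma adjusted p = 0.0227). The Mapk9 KO difference was -0.59 without Mapk9 KO control array 3 (limma adjusted p = 0.0396) and -0.20 without Mapk9 KO control array 2. Within each replicate number the injured array was lower than the control array for this probe in 6 of 6 pairs, by 0.13 to 1.04, and for probe ILMN_1246808 in 4 of 6 pairs.

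In WT hips the groups did not overlap for 3 of the 7 probes, all higher post injury, against 41.2% of all probes, 20.3% higher. In Mapk9 KO hips they did not overlap for 5 of the 7 probes, all higher post injury, against 49.7% of all probes, 24.5% higher. The Mapk9 KO share includes Plau and Plat, which had no 2-fold difference.

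**Figure D2:**
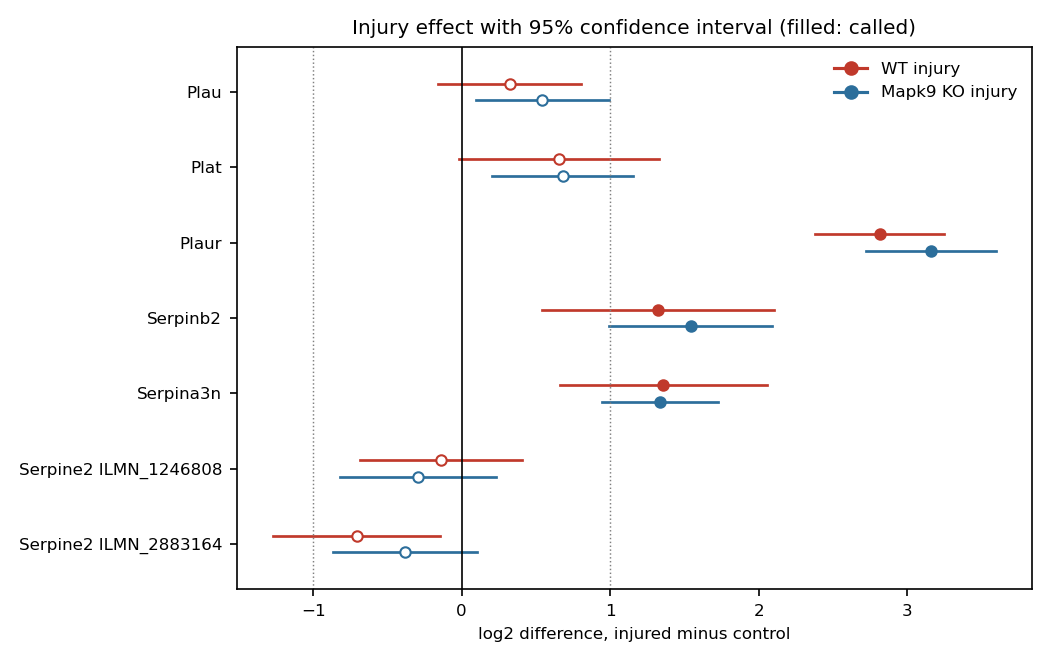
Log2 difference, injured minus control (horizontal axis), of each probe in WT and in Mapk9 KO hips, with bars for the 95% confidence interval and dotted lines at a 2-fold difference. Filled points were called, and these are Plaur, Serpinb2 and Serpina3n in both genotypes.

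The mean of both injury effects was fitted over all 12 arrays. By fold change and adjusted p it called the same 3 members, against 16% of all probes, 8.06% upregulated. By the limma adjusted p alone all 6 genes passed, 5 with higher and 1 with lower signal, against 46.7% of all probes. Plat then had a log2 difference of 0.67 (limma adjusted p = 0.0125), Plau of 0.43 (limma adjusted p = 0.0239) and Serpine2 probe ILMN_2883164 of -0.54 (limma adjusted p = 0.0186). Serpine2 probe ILMN_1246808 had a log2 difference of -0.22 with a limma adjusted p of 0.349, and it ran from -0.34 to -0.11 with each array left out.

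The Mapk9 knockout was compared with WT to ask whether the loss of this kinase altered the level of the members or their response. The control hips of the genotypes did not overlap in the log2 of the summed skeletal muscle marker signal. It ran from 16.84 to 17.39 in Mapk9 KO control and from 16.14 to 16.60 in WT control hips, although 0 of the 13 markers were called. The part of muscle content in the genotype comparisons was not tested. None of the 6 genes was called between genotypes in control hips, where 0.119% of all probes were called, or in injured hips, where 0.181% were. None had an unadjusted limma p under 0.05 in either comparison without the replicate block, and the methods' t-test also called 0. With the replicate number as a block, 0 members were called again, against 0.0905% of all probes in control and 0.895% in injured hips. Plau in injured hips then had an unadjusted limma p of 0.0453 (limma adjusted p = 0.228), with a higher Mapk9 KO signal in 3 of 3 numbers and a log2 difference of 0.31. A single sign in all 3 numbers was found for 3 of the 7 probes in control hips, against 31.4% of all probes, and for 3 of the 7 in injured hips, against 46.1%. In control hips these were Plaur and Serpine2 probe ILMN_2883164, both with lower Mapk9 KO signals (limma adjusted p = 0.658 and 0.600 under the block), and Plau with higher ones (limma adjusted p = 0.905). In injured hips they were Plau, Serpina3n with higher Mapk9 KO signals (limma adjusted p = 0.459) and Serpine2 probe ILMN_1246808 with lower ones (limma adjusted p = 0.587). The log2 differences, Mapk9 KO minus WT, ran from -0.37 to 0.21 in control hips (limma adjusted p from 0.922 to 0.993) and from -0.13 to 0.43 in injured hips (limma adjusted p from 0.540 to 0.953).

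Serpinb2 had the largest of these in injured hips, at 0.43 with a 95% interval from -0.16 to 1.01, and it was 0.15 without WT injured array 2 and 0.72 without WT injured array 1. Serpine2 probe ILMN_2883164 had the largest in control hips, at -0.37 with an interval from -0.97 to 0.24, and it was -0.15 without Mapk9 KO control array 3 and -0.58 without WT control array 3. Serpina3n was the only member whose injured groups did not overlap, with all Mapk9 KO injured arrays above all WT injured arrays by a mean log2 difference of 0.18 (limma adjusted p = 0.681). With each array left out this difference ran from 0.071 to 0.25. Across all probes, 16.8% had injured groups that did not overlap.

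The interaction, the injury effect in Mapk9 KO minus that in WT hips, was called for 0 of the 6 genes and for 0% of all probes by the limma adjusted p. None of the 7 member probes and 2088 of all probes had an unadjusted p under 0.05. Plaur had the largest interaction at 0.34 on the log2 scale (SE 0.26, limma adjusted p = 0.700), with an interval from -0.22 to 0.91. The interval for Serpinb2, with an estimate of 0.22, ran from -0.81 to 1.25, and that of Serpina3n, with an estimate of -0.022, from -0.84 to 0.79. In these fits without a block, a difference in response of nearly 2-fold was within the interval of both Plaur and Serpina3n. One above 2-fold was within those of Serpinb2 and of Serpine2 probe ILMN_2883164, which reached 1.07. With the replicate number as a block, the interval of ILMN_2883164 ran from -0.16 to 0.81 and that of Plaur from -0.091 to 0.78. Those of Serpina3n and Serpinb2 then ran from -0.77 to 0.73 and from -0.89 to 1.33, so a 2-fold difference stayed within that of Serpinb2.

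**Figure D3:**
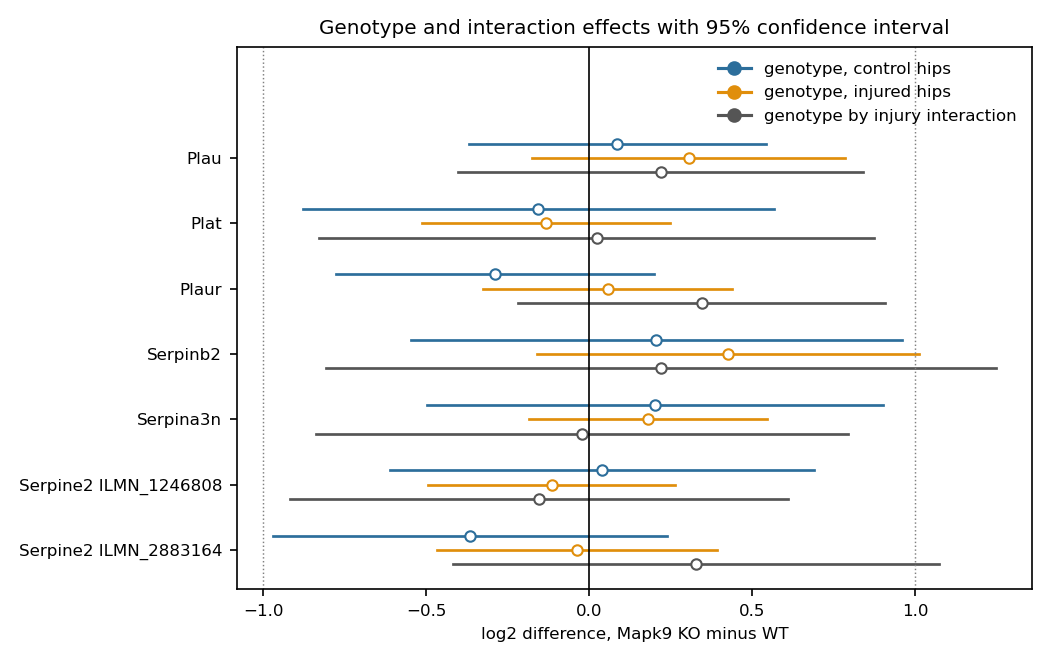
Log2 difference, Mapk9 KO minus WT (horizontal axis), of each probe in control hips and in injured hips, and the interaction of genotype and injury, with bars for the 95% confidence interval and dotted lines at a 2-fold difference. All intervals, from fits without the replicate block, include 0, and the widest is that of the Serpinb2 interaction, from -0.81 to 1.25.

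The rest of the plasminogen and coagulation system was followed through 32 further genes, of which 16 were in the normalized table. In WT hips 2 of the 16 were upregulated and 0 downregulated, and in Mapk9 KO hips 3 were upregulated and 1 downregulated, while 14.7% of all probes were called in WT and 18.7% in Mapk9 KO hips. Their median log2 difference was 0.49 in WT and 0.57 in Mapk9 KO hips. Plg, the gene of plasminogen itself, had 4 probes outside the table and was detected on 0 of the 12 arrays. Serpinf2, the gene of the plasmin inhibitor antiplasmin, Serpina5 and Serpini1 were likewise outside the table and detected on 0 arrays. For these genes a level above background was not detectable with the probes of this array.

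Among matrix substrates, Thbs1, which encodes the adhesive glycoprotein thrombospondin 1, rose in both genotypes. Its log2 signal was 8.91 ± 1.28 (SD, n = 3) in WT control and 10.92 ± 0.53 (SD, n = 3) in WT injured hips. It was 8.87 ± 0.15 (SD, n = 3) in Mapk9 KO control and 11.57 ± 0.29 (SD, n = 3) in Mapk9 KO injured hips. The log2 differences were 2.01 (SE 0.53, limma adjusted p = 0.0204) and 2.70 (SE 0.20, limma adjusted p = 2.65e-06). Fn1, the gene of fibronectin, was called in Mapk9 KO hips through 3 of its 4 probes, none of them the brightest, which had a log2 difference of 0.94 (limma adjusted p = 0.00256).

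F2rl1, which encodes the protease-activated receptor PAR2, rose in WT hips by a log2 difference of 1.44 (SE 0.23, limma adjusted p = 0.0014) from a level detected on 1 of 3 control arrays. It was detected on 0 of 3 Mapk9 KO control and 3 of 3 Mapk9 KO injured arrays, a rise of at least 2.71-fold (limma adjusted p = 6.53e-05). Here the injured mean was set against the lowest signal detected on each control array. Vtn, the gene of vitronectin, an adhesive protein of plasma and matrix, was detected on 3 of 3 Mapk9 KO control and 0 of 3 Mapk9 KO injured arrays, at least 2.36-fold lower by the same bound (limma adjusted p = 1.63e-05). In WT hips Vtn was detected on 2 of 3 control and 0 of 3 injured arrays with a limma adjusted p of 0.258, and its interaction had a limma adjusted p of 0.397, so the genotypes were not shown to differ.

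The surface partners of the system were called in neither genotype. These were Anxa2 and S100a10, the subunits of a plasminogen-binding complex, Plgrkt, Lrp1, which clears protease and inhibitor complexes from the cell surface, and Itgam and Itgb2, the chains of the leukocyte integrin Mac-1. Itgam had a log2 difference of 0.82 in WT (limma adjusted p = 0.0199) and 0.82 in Mapk9 KO hips (limma adjusted p = 0.00882), under the fold limit in both. In the receptor list, which holds Plaur, 1 of 7 measured genes was called in each genotype, against 14.7% of all probes in WT and 18.7% in Mapk9 KO hips.

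**Figure D4:**
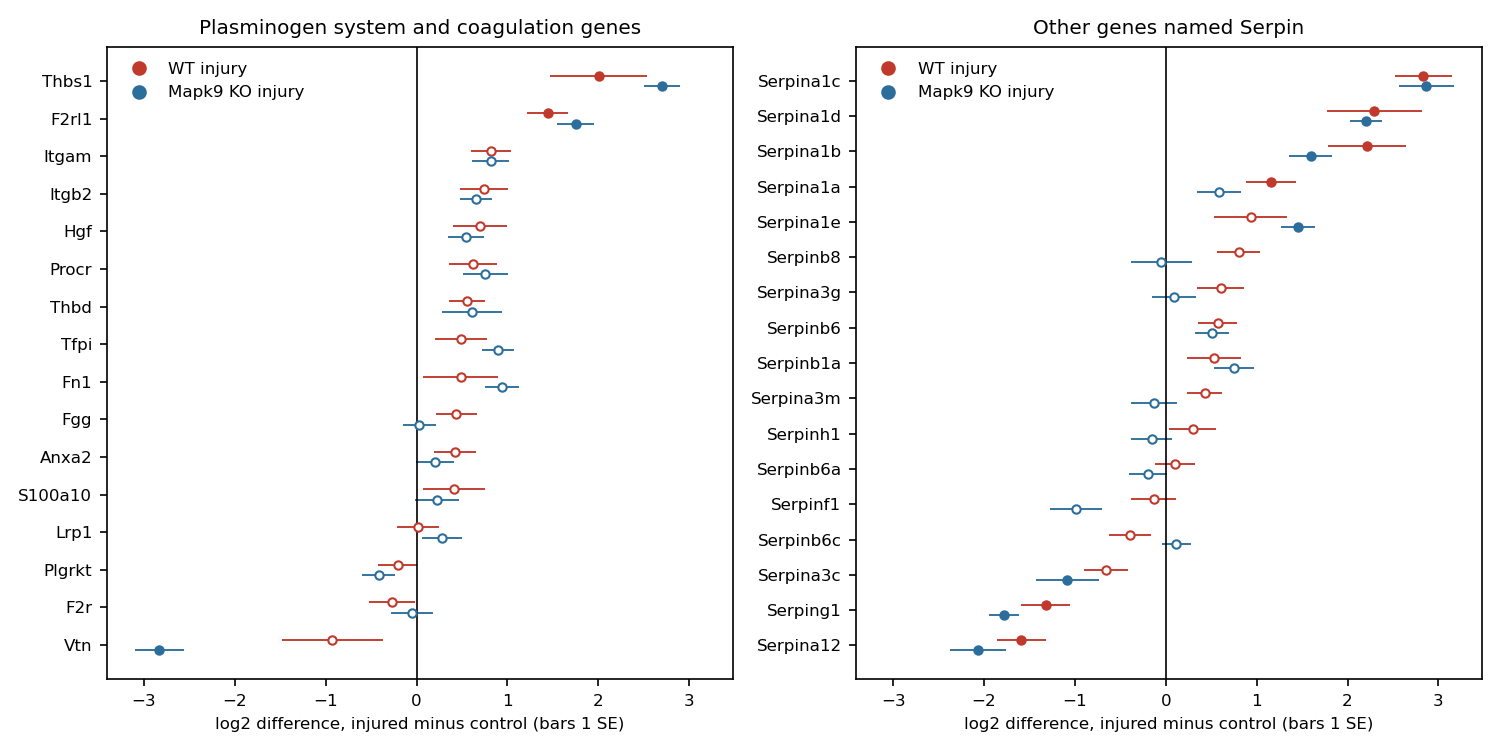
Log2 difference, injured minus control (horizontal axis, bars 1 SE), at the brightest probe of 16 further plasminogen and coagulation genes (left) and of 17 further genes whose symbol starts with Serpin (right), in WT and Mapk9 KO hips. Filled points were called at that probe, with Thbs1 and F2rl1 called in both genotypes on the left and Serpina1b, Serpina1c, Serpina1d, Serping1 and Serpina12 on the right.

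Serpins other than the members comprised 54 symbols on the array, of which 17 were in the normalized table. In WT hips 4 were upregulated and 2 downregulated, and in Mapk9 KO hips 5 were upregulated and 3 downregulated, with median log2 differences of 0.53 and 0.09. All probes called came to 14.7% in WT and 18.7% in Mapk9 KO hips. The upregulated genes were those of the Serpina1 family, which encode antitrypsin, an inhibitor of neutrophil elastase. Serpina1b had log2 differences of 2.21 in WT (SE 0.43, limma adjusted p = 0.0046) and 1.60 in Mapk9 KO hips (SE 0.24, limma adjusted p = 0.000375), and Serpina1d of 2.29 and 2.21. Serpina1c was detected on 0 of 3 Mapk9 KO control arrays and rose at least 4.60-fold there. Serpina1a was called in both genotypes, with log2 differences at its brightest probe of 1.15 in WT and 0.59 in Mapk9 KO hips. The Mapk9 KO call came from its other probe. Serpina1e was called in Mapk9 KO hips only. It was detected there on 0 of 3 control and 2 of 3 injured arrays, a rise of at least 1.11-fold. The probes of this family may read each other's transcripts, since the genes are nearly identical copies, so its genes cannot be counted as separate responses.

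Downregulated in both genotypes were Serping1, the gene of the C1 inhibitor of complement and contact proteases, and Serpina12, the gene of vaspin. Serping1 had log2 differences of -1.32 in WT (SE 0.27, limma adjusted p = 0.00622) and -1.78 in Mapk9 KO hips (SE 0.17, limma adjusted p = 1.62e-05), and those of Serpina12 were -1.59 and -2.07. The remaining downregulated serpin, Serpina3c in Mapk9 KO hips, was detected on 0 of the 12 arrays and is given no fold.

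Markers of other cell types moved with injury as well. The level of a marker list is given as the log2 of its summed signal. Macrophages are among the cells known to carry the urokinase receptor, and their markers ranged from 12.98 to 13.48 in WT control, 14.22 to 14.50 in WT injured, 13.32 to 13.61 in Mapk9 KO control and 14.32 to 14.75 in Mapk9 KO injured hips. Of the 8 measured, Cd14 and Lyz2 were upregulated in both genotypes. Adgre1, Csf1r, Cd163, Mrc1 and Aif1 were downregulated in both and Cd68 in Mapk9 KO hips, and Cd163 was detected on 0 of 6 injured arrays.

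Neutrophil markers ranged from 15.63 to 16.36 in WT control, 16.64 to 16.87 in WT injured, 16.00 to 16.53 in Mapk9 KO control and 16.37 to 16.83 in Mapk9 KO injured hips, with 5 of 8 upregulated in WT and 4 of 8 in Mapk9 KO hips by at least 1 probe. Skeletal muscle markers ranged from 16.14 to 16.60 in WT control, 13.21 to 15.05 in WT injured, 16.84 to 17.39 in Mapk9 KO control and 13.55 to 14.86 in Mapk9 KO injured hips. Of these, 12 of 13 were downregulated in WT and 13 of 13 in Mapk9 KO hips. Adipocyte markers ranged from 11.23 to 12.79 in WT control and 9.29 to 10.04 in WT injured hips, and from 12.25 to 13.82 in Mapk9 KO control and 8.92 to 9.54 in Mapk9 KO injured hips.

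Chondrocyte markers ranged from 15.55 to 16.07 in WT control, 16.58 to 16.82 in WT injured, 15.45 to 16.15 in Mapk9 KO control and 16.38 to 16.73 in Mapk9 KO injured hips. At least 1 probe was upregulated for 7 of the 11 measured in WT and 8 of 11 in Mapk9 KO hips. A probe of Col11a1 was downregulated in WT hips. Of the remaining lists, 1 of 8 endothelial markers was upregulated in WT hips and 0 in Mapk9 KO hips, and 1 of 6 erythroid markers was downregulated in each genotype. Of 7 osteoblast markers, 1 was upregulated in each genotype, 3 were downregulated in WT and 4 in Mapk9 KO hips. Muscle and adipocyte sums were thus lower, and chondrocyte and macrophage sums higher, on every injured than on every control array of the same genotype, as were Plaur, Serpinb2 and Serpina3n. The macrophage sum held the rise of Cd14 and Lyz2, while the mean of the 8 macrophage genes was lower on every injured than on every control array. These means were 8.87 to 9.08 in WT control, 8.42 to 8.82 in WT injured, 8.92 to 9.14 in Mapk9 KO control and 8.24 to 8.46 in Mapk9 KO injured hips. The neutrophil sums were higher on every injured array in WT hips and overlapped in Mapk9 KO hips. The mean of the neutrophil genes, in contrast to their sum, was higher on every injured than on every control array, with means of 12.45 to 13.14 in WT control, 13.56 to 13.83 in WT injured, 12.87 to 13.28 in Mapk9 KO control and 13.32 to 13.77 in Mapk9 KO injured hips.

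The members also moved with some of these lists within groups, taken as each array's deviation from its group mean over the 12 arrays. Plau deviated with the neutrophil (r = 0.81) and erythroid (r = 0.81) means, but not once the means of the replicate numbers were removed (r = -0.12 and 0.15). Its coefficient with the endothelial mean was 0.67 (-0.21 after that step), and with the adipocyte mean -0.44 (0.83 after that step). Serpine2 probe ILMN_1246808 deviated with the erythroid (r = 0.82), neutrophil (r = 0.81), endothelial (r = 0.77) and osteoblast (r = 0.74) means. After that step these coefficients were 0.55, 0.51, 0.092 and 0.60. The same probe deviated against the adipocyte mean (r = -0.90, and -0.74 after that step). Serpina3n deviated against the neutrophil mean (r = -0.74, and -0.73 after that step), falling to -0.36 without the 2 arrays farthest from the median of that mean. Its coefficient with the erythroid mean was -0.68 (-0.57 after that step), and with the chondrocyte mean 0.53 (0.90 after that step). Plat deviated with the chondrocyte mean (r = 0.72, and 0.88 after that step), falling to 0.31 without the 2 farthest arrays. Serpine2 probe ILMN_2883164 deviated with the endothelial mean (r = 0.84) and against the adipocyte mean (r = -0.78), with r = 0.44 and -0.43 after that step. Its coefficients with the osteoblast, erythroid and neutrophil means were 0.71, 0.68 and 0.67, and 0.61, -0.28 and -0.53 after that step. For Plaur the coefficient farthest from 0 was 0.60, with the neutrophil mean, and it was 0.17 after that step. The Plaur coefficient farthest from 0 was then 0.62, with the macrophage mean. For Serpinb2 the farthest was -0.68, with the chondrocyte mean, and -0.73 after that step. The Serpinb2 coefficient with the neutrophil mean was 0.27 before and 0.89 after that step. These values are a description with no p, since arrays of the same number share their deviations and are not independent. The part of these lists in the members' injury differences was not tested.

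**Figure D5:**
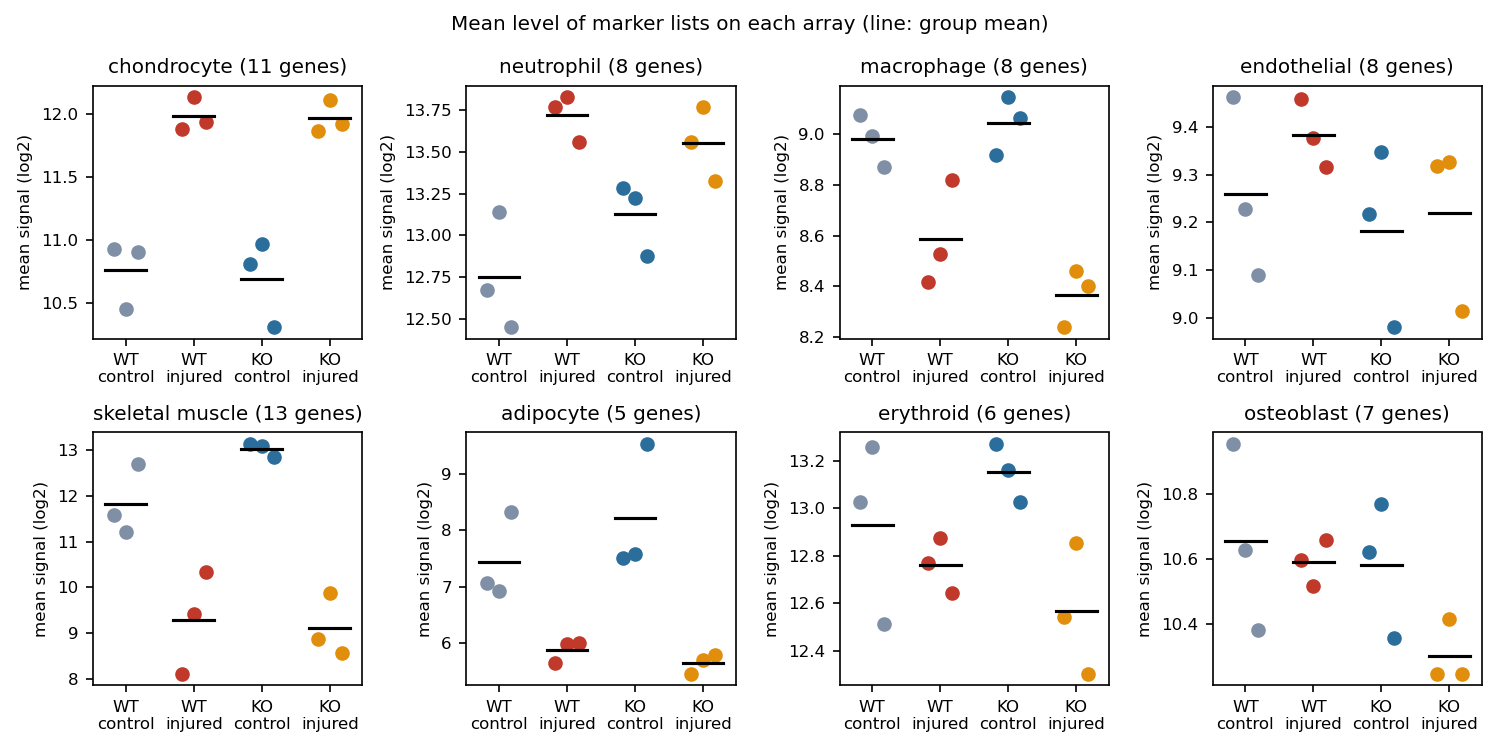
Mean log2 signal (vertical axis, a separate scale per panel) of the measured genes of 8 marker lists on each array, grouped on the horizontal axis, with lines at the group means. Muscle, adipocyte and macrophage means are lower, and chondrocyte and neutrophil means higher, on every injured array than on every control array, and the macrophage mean thus moves opposite to the sum.

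The genes whose signal over the 12 arrays was most like that of each member are given as a description, since the arrays share the injury contrast. Nearest to Plaur were Ldhc (Pearson r = 0.998), a lactate dehydrogenase, Ccl4 (r = 0.997), a chemokine, and D10Ertd438e (r = 0.996). Nearest to Serpina3n were Eno1 (r = 0.985), a glycolytic enzyme, Pcolce2 (r = 0.979), an enhancer of procollagen processing, and Serpina1d (r = 0.975). Nearest to Serpinb2 were the unnamed transcripts scl0003332.1_66 (r = 0.971), BC065123 (r = 0.955) and AU019532 (r = 0.952).

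The members without a 2-fold difference followed other genes. Plau was nearest to Pira1 (r = 0.936), Adipor1 (r = 0.924) and Rtn3 (r = 0.907), and Plat to 4930507C10Rik (r = 0.958), Sbsn (r = 0.948) and BC004044 (r = 0.947). Serpine2 at its brightest probe was nearest to D2Ertd391e (r = 0.960), Fmo2 (r = 0.928) and Tmsb10 (r = 0.926).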

How the data were processed

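RNA of murine hip cartilage was measured on 12 Illumina mouse BeadChip arrays, 3 per group, and the labels gave every group. For 45281 probes the authors deposited bead intensities as scanned, and beside each a detection p-value, with detection set here at under 0.05. The authors subtracted a background measured on the negative controls of each array, applied vsn and deposited the resulting log2 values of 21004 probes (46.4%). The vsn version and the probe filter are not given in the sources used here. The number of arrays limits the precision.

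The log2 values were fitted with limma 3.58.1 (lmFit and eBayes, Benjamini-Hochberg over all probes) in R 4.3.3. The 6 arrays of the 2 groups compared entered each fit, and all 12 entered the average and the interaction. Calls needed more than a 2-fold difference with an adjusted p under 0.05, and for the interaction only the adjusted p. The scripts were tested on simulated data. Alternatives were normexp with quantile normalization, quantile normalization of the intensities alone, subtracted array medians, a filter to probes detected on 3 or more arrays, 1 fit over all 12 arrays, a block for the replicate number, a block for the label code, the methods' t-test (two-tailed, named by the study for metabolite features and in a legend also for gene expression), no fold limit, and each array left out. The label code is a number, 1 or 2, in the description of each array, and what it stands for is not given. Replicates 1 and 3 carried the same code in both genotypes. Replicate 2 carried code 1 in WT and code 2 in Mapk9 KO hips. The block for the replicate number without a fold limit was added after seeing the data.

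The replicate numbers come from the labels. Deviations from the group means correlated between arrays of the same number in 18 of 18 pairs (r from 0.153 to 0.390), and in the 36 other pairs r ran from -0.289 to 0.0825, so the numbers were taken to pair the samples. The fits behind the printed errors and p-values held no such block, and values with the block are named as such where given. Array correlations lay between 0.868 and 0.986 and 0 pairs held identical values. P-values measure the spread between the pooled samples.

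The members and the gene lists were chosen with earlier results of these data known. Named were all members, the other pathway genes and serpins called in WT or Mapk9 KO injury, and the 3 genes most like each member. The result of 1 listed gene is not reported here. A gene counted as called where any of its probes was, and levels and medians use its brightest probe. Older symbols were accepted only with the same gene ID or RefSeq accession. The file's probe coordinates name no build and are not printed. Promoter sequences are from RefSeq (GRCm38.p6), which held no entry for Plau and Plat. For a probe not detected on any array of a group, a bound was taken from the lowest detected signal per array. Python 3.11.15 was used for lists and figures.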

Additional observations from a re-analysis of the deposited data

How the results depend on the processing

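Plaur was called in both genotypes under every alternative run. Quantile normalization without background correction left 1 member called in WT, 1 in Mapk9 KO and 1 in the average effect, and the methods' t-test left 1 in WT, where Serpina3n had an adjusted p of 0.117 and Serpinb2 of 0.162 after Benjamini-Hochberg. Without a fold limit, 6 members passed in the average effect, and with the replicate block as well, 5 in Mapk9 KO hips and 6 in the average effect. With each array left out, 2 to 3 members were called in WT hips and 3 in Mapk9 KO hips each time. The replicate block left 3 members called in WT, 3 in Mapk9 KO and 0 in the interaction, and changed no call of a member by fold and adjusted p, although the share of all probes called for the interaction was then 0.533%.

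None of the genotype and interaction differences that turned direction was called, and the cause was not tested. As reported they ran from -0.16 to 0.22 on the log2 scale, and leaving out single arrays moved some of them further from 0. For Serpine2 probe ILMN_1246808 the genotype difference in control hips became -0.19 with normexp and quantile normalization and -0.19 with quantile normalization alone. In injured hips it became 0.023 and 0.023, and its interaction 0.21 and 0.21. Probe ILMN_2883164 in injured hips became 0.047 and 0.044 under the same settings and 0.063 with the label code as a block. The interaction became 0.042 for Serpina3n with quantile normalization alone and -0.022 for Plat with array medians subtracted. With each array left out, the control genotype difference ran from -0.50 to 0.16 for Plat, -0.042 to 0.54 for Serpinb2, -0.20 to 0.45 for Serpina3n, -0.016 to 0.17 for Plau and -0.21 to 0.29 for Serpine2 probe ILMN_1246808. In injured hips it ran from -0.19 to 0.11 for Serpine2 probe ILMN_2883164 and from -0.077 to 0.14 for Plaur. The interaction ran from -0.29 to 0.36 for Plat, -0.27 to 0.38 for Serpina3n, -0.12 to 0.52 for Serpinb2 and -0.40 to 0.10 for Serpine2 probe ILMN_1246808. Of the other genotype and interaction differences that kept their direction, Plau ran from 0.17 to 0.50 in injured hips, Plaur from 0.21 to 0.48 for the interaction and Serpine2 probe ILMN_2883164 from 0.11 to 0.54 for the interaction. Signal near background limits Serpinb2 and Serpina3n in control hips.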
